A study of Mus musculus with 8 samples.

Results

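The Zfp36 family and a set of immediate early genes were followed in laser-microdissected growth plate cartilage of young mice. The 10 genes were *Zfp36*, *Zfp36l1*, *Zfp36l2*, *Fos*, *Jun*, *Junb*, *Egr1*, *Klf2*, *Klf4* and *Klf6*, of 43629 genes in the count table. They were picked by name with their zone difference known, so their differences between zones are given as a description, with no p-value. Axin2CreERT2;R26RTdTomato mice carry a tamoxifen-inducible Cre under the *Axin2* promoter and a red fluorescent reporter. All mice received 3 daily tamoxifen injections from P23 and were analyzed at P30, so both zones came from treated animals of one genotype. TdTomato-positive chondrocytes of the resting zone (RZ) and unlabeled, flattened chondrocytes of the proliferative zone (PZ), the latter at least 50 μm from the secondary ossification center, were cut from frozen sections of 8 μm. The labels name tibiae, whereas the study's methods name the distal femur and the proximal tibia. Each of the male mice 1 and 2 and the female mice 6 and 13 gave 1 library per zone (n = 4 per zone). RNA was amplified by in vitro transcription before library preparation.

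ZFP36 proteins are zinc finger proteins that bind AU-rich elements in the 3′ UTRs of mRNAs and recruit the CCR4-NOT deadenylase, which shortens the poly(A) tail and leads to decay of the message. Immediate early genes are switched on within minutes of a growth factor, a mechanical stimulus or cell stress, without new protein synthesis. *Fos*, *Jun* and *Junb* encode subunits of the AP-1 transcription factor, *Egr1* a zinc finger transcription factor, and *Klf2*, *Klf4* and *Klf6* Krüppel-like factors, and many of their mRNAs are short-lived.

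The AU-rich core TATTTAT, as written in DNA, was searched in the longest annotated 3′ UTR of each gene (GENCODE M21, GRCm38), because it is the element that the family itself binds. *Zfp36*, *Zfp36l1* and *Zfp36l2* each held 3 sites. *Fos* and *Klf6* held 2 sites each, *Jun* and *Klf2* 1 each, and *Junb*, *Egr1* and *Klf4* held 0. At least 1 site was present in 27.61% of 21014 genes with an annotated 3′ UTR. Long 3′ UTRs hold more sites by length alone. Each gene was therefore set against the genes with a 3′ UTR within 20% of its length. At least as many sites were found in 4.31% of those for *Zfp36l1* (1835 bases) and 4.30% for *Zfp36l2* (1822 bases). The share with at least as many sites was 1.29% for *Zfp36* (774 bases) and 4.09% for *Fos* (815 bases). For *Klf2*, *Klf6* and *Jun* these shares were 18.75%, 23.35% and 30.2%. The sites of the 3 family members and the first site of *Fos* are shown with 11 bases on each side and the core in capitals. For *Zfp36*, the first and the last of its sites are shown, since the middle one overlaps the first window.
*Zfp36l1*, chr12:80108422-80108450, minus strand: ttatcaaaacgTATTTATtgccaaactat
*Zfp36l1*, chr12:80108381-80108409, minus strand: aattttgttcaTATTTATcgggatgacaa
*Zfp36l1*, chr12:80108167-80108195, minus strand: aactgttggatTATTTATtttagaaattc
*Zfp36l2*, chr17:84184914-84184942, minus strand: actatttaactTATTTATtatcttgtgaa
*Zfp36l2*, chr17:84184866-84184894, minus strand: tgtccatactgTATTTATcgagtatgatg
*Zfp36l2*, chr17:84184680-84184708, minus strand: attgtatgtaaTATTTATttcattaattt
*Zfp36*, chr7:28376966-28376994, minus strand: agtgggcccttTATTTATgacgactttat
*Zfp36*, chr7:28376926-28376954, minus strand: agattttatagTATTTATatatattgggt
*Fos*, chr12:85477103-85477131, plus strand: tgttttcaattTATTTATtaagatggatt
These letters are a sequence match only. Binding and message stability were not measured.

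Promoters from 250 bases before to 50 bases after the start were searched for 8 of the 10 genes among 27025 RefSeq promoters (GRCm38.p6). Those of *Zfp36l2* and *Egr1* were not analysed here. An AP-1 motif (TGANTCA, either strand) was present in 1 of the 8, *Zfp36l1*, against 7.93% of all promoters. An EGR motif (GCGNGGGCG, either strand) was present in *Zfp36*, *Klf2* and *Klf4*, against 5.55% of all. A CArG box, the site of serum response factor, was present in *Zfp36*, against 1.57%. The CRE TGACGTCA was present in 0 of the 8, against 1.88%, and a GC box (GGGCGGG, either strand) in *Jun*, *Klf2* and *Klf4*, against 25.75%. TATAAA on the sense strand was found in *Zfp36l1*, *Fos* and *Junb*, against 8.88%. The 150 bases upstream of *Zfp36l1*, the gene with the most counts, are shown with the AP-1 motif and the TATA box in capitals, and those of *Zfp36* with the EGR motif and the CArG box in capitals.
*Zfp36l1*, chr12:80113014-80113163, minus strand: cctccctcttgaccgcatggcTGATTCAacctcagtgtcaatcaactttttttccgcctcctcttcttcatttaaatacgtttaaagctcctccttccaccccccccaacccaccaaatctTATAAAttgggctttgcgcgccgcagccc
*Zfp36*, chr7:28379229-28379378, minus strand: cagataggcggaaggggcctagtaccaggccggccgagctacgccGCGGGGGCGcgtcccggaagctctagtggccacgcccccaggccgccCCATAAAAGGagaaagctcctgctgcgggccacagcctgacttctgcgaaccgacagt

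The libraries held 192882 to 462044 counts on genes in the RZ and 249284 to 631474 in the PZ. Expression is given as CPM, counts scaled to a common library total with TMM factors (0.9342 to 1.088), and 3 counts corresponded to 4.81 to 14.7 CPM depending on the library. Summed chondrocyte markers lay between 7648 and 19678 CPM in the RZ and between 35356 and 60506 CPM in the PZ libraries. Summed osteoblast and osteocyte markers lay between 10447 and 37762 CPM in the RZ and exceeded the chondrocyte sum there in mice 1, 2 and 13. The RZ library of mouse 6 stood apart, with the highest chondrocyte sum and the highest sum of RZ markers (1076 CPM, the others at most 562 CPM). It also had the lowest osteoblast sum of the RZ. That osteoblast sum rested mostly on *Col1a1* and *Col1a2* (RZ means 15162 and 7454 CPM). *Bglap* and *Bglap2* were also lowest there, whereas *Ibsp*, *Spp1*, *Alpl* and *Sp7* were highest (486, 336, 92 and 11 counts). Results that rest on the RZ library of mouse 6 are therefore given with and without it. *Axin2* itself had 1 count over all 8 libraries. The strand setting of the authors' counting is not given in the sources used here, and at several loci the gene on the opposite strand of a well-known transcript held most of the counts. *Tsix*, antisense to *Xist*, had 18683 counts in the female libraries against 1367 for *Xist*. *Tcfl5* had 64349 counts over all libraries against 1756 for the cartilage collagen gene *Col9a3*, and *Nt5dc1* 13458 against 406 for the hypertrophic collagen gene *Col10a1*. Which strand's reads make up a gene's count was not tested, so the counts of the 10 genes may hold only part of their own reads, or reads from the opposite strand. In such bulk samples, fewer cells of a type and less RNA per cell cannot be told apart.

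*Zfp36l1* had the most counts of the 10 genes over all libraries, 306, and was 8.54 to 22.9 times higher in the RZ than in the PZ of the same mouse. It encodes a decay-promoting ZFP36 protein (ENSMUSG00000021127, chr12:80107754-80113013, minus strand, GRCm38). It had 60, 53, 98 and 58 counts in the RZ of mice 1, 2, 6 and 13, and 11, 9, 14 and 3 counts in the PZ. These counts corresponded to 182, 168, 195 and 285 CPM in the RZ and 21.4, 15.4, 22.4 and 12.4 CPM in the PZ. The zones did not overlap, and the lowest RZ library lay far above the highest PZ one. The mean level was 207 ± 52.6 CPM in the RZ against 17.9 ± 4.78 CPM in the PZ (SD, n = 4 each). The log2 fold change was 3.46 (SE 0.34). Within mice 1, 2, 6 and 13, the RZ exceeded the PZ 8.54-, 10.9-, 8.69- and 22.9-fold. Without the RZ library of mouse 6 the log2 fold change was 3.46 again, and leaving out any single library gave 3.24 to 3.54.

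*Zfp36l1* and *Klf4* were the only 2 of the 10 genes with enough counts for the comparison across 3793 genes, and as a description *Zfp36l1* alone met the call rule of an adjusted p below 0.01 and a log2 fold change above 1 or below -1. In that comparison 682 genes (18.0%) were called in either direction, with 419 (11.0%) higher in the RZ and 263 (6.93%) higher in the PZ. When all 17492 genes with a count were fitted, 1 of the 10 genes was called, against 7.41% of all, of which 4.74% were higher in the RZ and 2.68% higher in the PZ. For 3 of the 10, *Zfp36l1*, *Fos* and *Junb*, all RZ libraries were above all PZ libraries, as they were for 17.8% of the tested genes and 8.38% of all genes with a count. As the genes were picked on this contrast, nothing is read from these shares. Values of the other 8 genes come from the fit over all genes with a count, which has scaling factors of its own. In it the log2 fold change was 3.22 for *Zfp36l1* and -1.07 for *Klf4*, against 3.46 and -0.84 in the comparison across tested genes. CPM keep the scaling of the tested genes, so the log2 fold changes of the 8 and their CPM are not on the same scale.

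*Zfp36* and *Zfp36l2* were less abundant and less even. *Zfp36* encodes tristetraprolin, the founding member of the family (ENSMUSG00000044786, chr7:28376784-28380253, minus strand). It had 0, 6, 2 and 3 counts in the RZ of mice 1, 2, 6 and 13 and 1, 1, 1 and 0 counts in the PZ. The zones overlapped, since mouse 1 had no RZ count, and with 11 against 3 counts the ratio of pooled CPM was 5.33 (95% counting interval 1.41 to 29.8). The RZ library of mouse 2 held 6 of these 11 counts, and the log2 fold change of *Zfp36* was 2.18 with it and 1.49 without it. *Zfp36l2*, a family member with roles in oocytes and lymphocytes (ENSMUSG00000045817, chr17:84183931-84187947, minus strand), had 7, 1, 10 and 23 RZ counts and 3, 5, 10 and 5 PZ counts. Its RZ level was 39.3 ± 49.7 CPM against 12.8 ± 6.83 CPM (SD, n = 4 each), with the RZ library of mouse 13 at 113 CPM and mouse 2 lower in the RZ than in the PZ. The log2 fold change of *Zfp36l2* was 1.33 (SE 0.66) and was 0.10 without the RZ library of mouse 13. The 3 family members together reached 204, 190, 219 and 412 CPM in the RZ and 29.1, 25.7, 40.0 and 33.2 CPM in the PZ of mice 1, 2, 6 and 13.

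**Figure D1:**
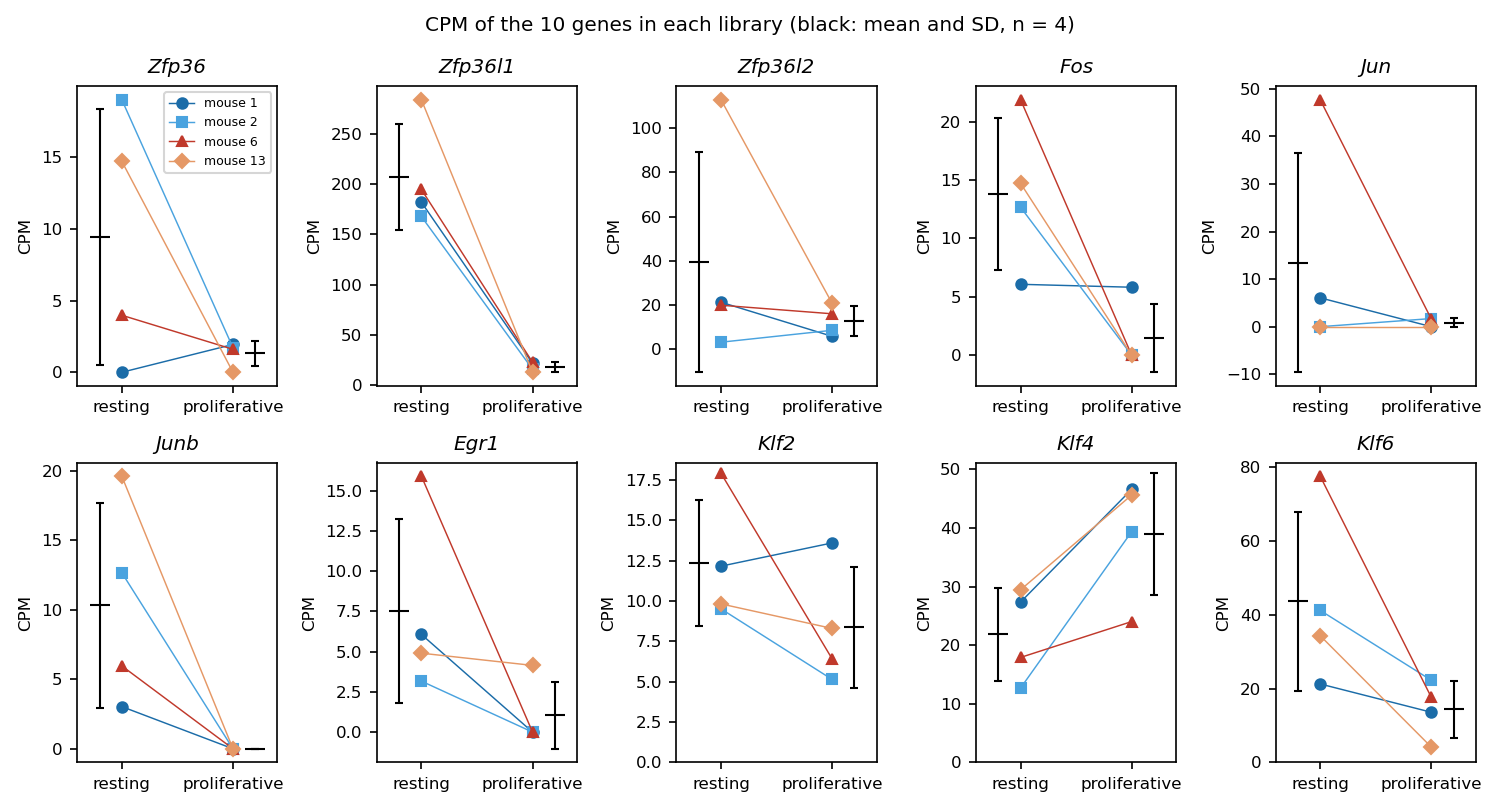
CPM of each of the 10 genes (vertical axis, own scale per panel) in the RZ and PZ libraries, with lines joining the libraries of a mouse and black bars for the mean and SD (n = 4). *Zfp36l1* separates the zones widely in all 4 mice, *Klf4* runs the other way, and the RZ library of mouse 6 (red triangles) is the highest for *Fos*, *Jun*, *Egr1*, *Klf2* and *Klf6*.

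The AP-1 genes and *Egr1* had few counts, nearly all of them in the RZ. *Fos* (ENSMUSG00000021250, chr12:85473890-85477273, plus strand) had 2, 4, 11 and 3 counts in the RZ of mice 1, 2, 6 and 13 and 3, 0, 0 and 0 in the PZ. The libraries did not overlap on the CPM scale, but only just: mouse 1 had 6.08 CPM in the RZ and 5.82 CPM in the PZ. The mean of *Fos* was 13.8 ± 6.51 CPM against 1.46 ± 2.91 CPM (SD, n = 4 each), with a log2 fold change of 2.73 (SE 1.13). Mouse 6 held 11 of its 20 RZ counts, and without that library the RZ libraries averaged 11.2 ± 4.52 CPM (SD, n = 3), with a log2 fold change of 2.28. The log2 fold change of *Fos* was 5.43 when the PZ library of mouse 1, the source of all proliferative *Fos* counts, was left out. That library also had the highest PZ sums of neutrophil (604 CPM), erythroid (1718 CPM), osteoclast (507 CPM) and osteoblast markers (4192 CPM). A link between these markers and *Fos* was not tested.

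*Jun*, an AP-1 subunit encoded by a single exon (ENSMUSG00000052684, chr4:95049034-95052222, minus strand), had 2, 0, 24 and 0 counts in the RZ of mice 1, 2, 6 and 13 and 0, 1, 1 and 0 in the PZ. Its zone difference rested on 1 library. The mean of *Jun* in the RZ was 13.5 ± 23 CPM (SD, n = 4) and 2.03 ± 3.51 CPM (SD, n = 3) without mouse 6, where only 2 counts were left, and the log2 fold change went from 3.39 to 0.73. *Junb*, a further AP-1 subunit (ENSMUSG00000052837, chr8:84974484-84978718, minus strand), had 1, 4, 3 and 4 counts in the RZ and 0 in every PZ library. Pooled over the 4 libraries of a zone, this was at least 5.82-fold higher in the RZ when 3 counts were taken as the limit of the PZ and the RZ counts as exact. With counting error in both zones, the lower end of the 95% interval was 4.04. Unlike *Jun*, *Junb* was spread over all 4 mice, with 9 of its 12 counts outside mouse 6.

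*Egr1* (ENSMUSG00000038418) had 2, 1, 8 and 1 counts in the RZ of mice 1, 2, 6 and 13 and 0, 0, 0 and 1 in the PZ. Its mean was 7.52 ± 5.73 CPM against 1.04 ± 2.07 CPM (SD, n = 4 each), and 4.72 ± 1.46 CPM (SD, n = 3) in the RZ without mouse 6. The log2 fold change of *Egr1* was 3.02 (SE 1.43), 2.18 without the RZ library of mouse 6 and 4.72 without the PZ library of mouse 13, which held its only PZ count. At such counts a single read decided whether the libraries of mouse 13 differed.

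Summed, *Fos*, *Jun*, *Junb* and *Egr1* reached 21.3, 28.5, 91.5 and 39.3 CPM in the RZ of mice 1, 2, 6 and 13 and 5.82, 1.71, 1.60 and 4.15 CPM in the PZ. All 4 RZ libraries were above all 4 PZ libraries, on 70 and 6 counts. The library of mouse 6 held 46 of the 70 RZ counts (65.7%). Without it the RZ mean went from 45.1 ± 31.8 CPM (SD, n = 4) to 29.7 ± 9.05 CPM (SD, n = 3), against 3.32 ± 2.04 CPM in the PZ (SD, n = 4). The sum was therefore higher in the RZ also without that library, whereas only 2 of the RZ counts of *Jun* were left.

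The Krüppel-like factors did not move together. *Klf4*, known in epithelial barrier formation and in reprogramming (ENSMUSG00000003032, chr4:55527143-55532466, minus strand), was lower in the RZ of all 4 mice. It had 9, 4, 9 and 6 counts in the RZ of mice 1, 2, 6 and 13 and 24, 23, 15 and 11 in the PZ. Its mean was 21.8 ± 7.91 CPM against 38.9 ± 10.4 CPM (SD, n = 4 each), with a log2 fold change of -0.84 (SE 0.44), and the RZ to PZ ratio was 0.587, 0.322, 0.745 and 0.645 in mice 1, 2, 6 and 13. The ranges of *Klf4* overlapped, since mouse 6 in the PZ (24.0 CPM) was below mice 1 and 13 in the RZ (27.3 and 29.4 CPM).

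*Klf6*, a widely expressed family member (ENSMUSG00000000078, chr13:5861482-5870394, plus strand), showed the opposite direction. It had 7, 13, 39 and 7 counts in the RZ of mice 1, 2, 6 and 13 and 7, 13, 11 and 1 in the PZ. Scaled to the library, the RZ was 1.57-, 1.85-, 4.40- and 8.28-fold higher within mice 1, 2, 6 and 13, and the log2 fold change was 1.31 (SE 0.59), or 0.72 without the RZ library of mouse 6. The ranges of *Klf6* overlapped, and the RZ mean of 43.6 ± 24.1 CPM (SD, n = 4) became 32.3 ± 10.1 CPM (SD, n = 3) without mouse 6, against 14.4 ± 7.70 CPM in the PZ (SD, n = 4).

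*Klf2*, a shear stress-responsive factor of endothelial cells and lymphocytes (ENSMUSG00000055148, chr8:72319033-72321656, plus strand), had 4, 3, 9 and 2 counts in the RZ of mice 1, 2, 6 and 13 and 7, 3, 4 and 2 in the PZ. The zones overlapped and the mean of 12.3 ± 3.89 CPM against 8.36 ± 3.72 CPM (SD, n = 4 each) differed by about the spread between libraries. The ratio of pooled CPM of *Klf2* was 1.64 (95% counting interval 0.787 to 3.43). Without the RZ library of mouse 6, which held 9 of its 18 RZ counts, the RZ libraries averaged 10.5 ± 1.45 CPM (SD, n = 3). In the fit over all genes with a count, which is not on the scale of these CPM, this moved the log2 fold change of *Klf2* from 0.36 to 0.02. The 3 factors summed to 60.8 to 113 CPM in the RZ and 48.1 to 73.8 CPM in the PZ libraries. Without mouse 6 the RZ mean of this sum was 65.9 ± 6.79 CPM (SD, n = 3), against 61.7 ± 11.1 CPM in the PZ (SD, n = 4).

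**Figure D2:**
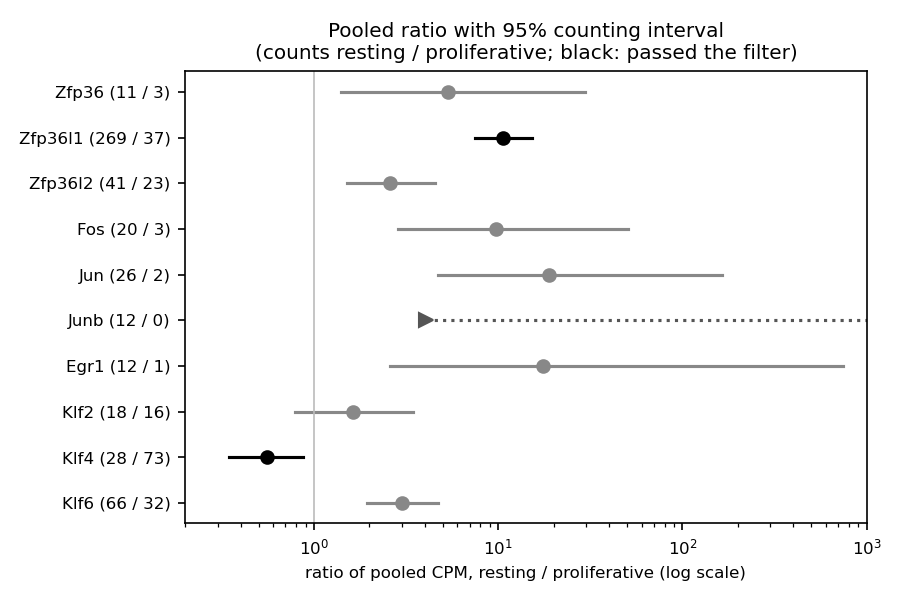
Ratio of pooled CPM, RZ over PZ (log axis), for each gene, with 95% counting intervals and the pooled counts of both zones in parentheses. The interval is narrow for *Zfp36l1* (7.48 to 15.3), lies below 1 for *Klf4* (0.347 to 0.873), is 0.787 to 3.43 for *Klf2*, and for *Junb* has only a lower end, drawn at 4.04.

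The intervals cover counting error only, and not the differences between mice. They were widest where the PZ had fewest counts: the pooled ratio was 9.69 (2.87 to 50.9) for *Fos*, 18.9 (4.73 to 164) for *Jun* and 17.4 (2.58 to 746) for *Egr1*. For *Zfp36l2* and *Klf6* the ratios were 2.59 (1.52 to 4.53) and 3.00 (1.94 to 4.73). Over the 10 genes, 503 counts fell in the resting and 190 in the PZ.

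Whether counts scale with exon length after the amplification was not tested, and the strand limit above applies to them. The order below therefore ranks counts per exon length and not transcript levels. Divided by exon length, *Zfp36l1* had the highest value of the 10 genes in the RZ, at 69.4 CPM per kb. Its lowest RZ library (56.2 CPM per kb) was above the highest RZ library of any other of the genes (32.0 CPM per kb, *Zfp36l2* in mouse 13). The order continued with *Zfp36l2* at 11.1, *Klf6* at 9.93, *Klf4* at 7.16, *Klf2* at 6.68, *Fos* at 5.88, *Junb* at 4.49, *Jun* at 4.22, *Zfp36* at 2.72 and *Egr1* at 1.68 CPM per kb, and from *Zfp36l2* on the libraries of neighbors in this order overlapped. In the PZ *Klf4* led with 12.8 CPM per kb, followed by *Zfp36l1* at 5.99, *Klf2* at 4.53, *Zfp36l2* at 3.62 and *Klf6* at 3.28 CPM per kb. All PZ libraries of *Klf4* (7.88 to 15.3 CPM per kb) were above those of *Zfp36l1* (4.16 to 7.50 CPM per kb), and the remaining 5 genes each averaged below 1 CPM per kb.

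The locus of *Zfp36l1* is also annotated on the other strand. The lincRNA gene *Gm26669* (ENSMUSG00000097417, chr12:80108034-80113000, plus strand) lies within the span of *Zfp36l1* and shares 1672 bases of exon with it, 55.92% of the *Zfp36l1* exon length. *Gm26669* had 657, 583, 479 and 406 counts in the RZ of mice 1, 2, 6 and 13 and 165, 58, 80 and 24 in the PZ. Over all 8 libraries it had 2452 counts against 306 for *Zfp36l1*. The log2 fold change of *Gm26669* was 3.38 (SE 0.41), close to that of *Zfp36l1*. The ratio of its counts to those of *Zfp36l1* ranged from 4.89 to 15 between libraries. With the strand of the counting not known, reads of the 2 genes cannot be told apart, and the counts of *Zfp36l1* may be the lesser share of the reads from its own transcript.

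**Figure D3:**
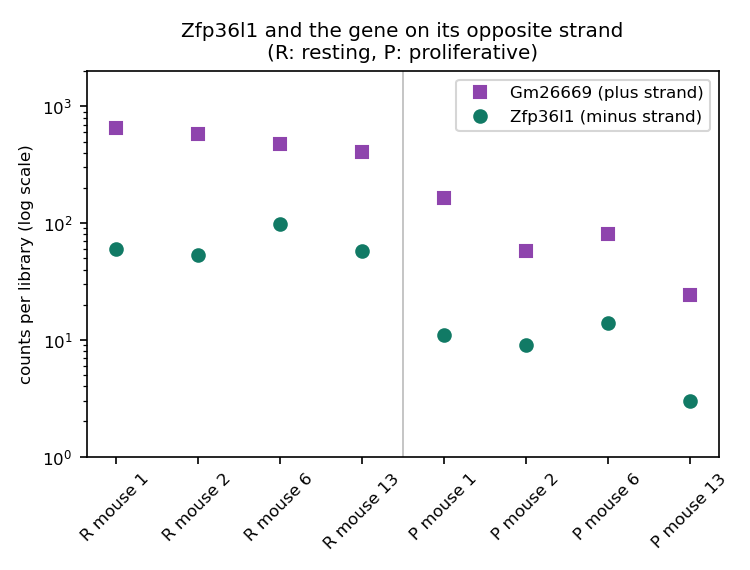
Counts per library (log axis) of *Zfp36l1* on the minus strand and of *Gm26669* on the plus strand, in the resting (R) and proliferative (P) zone of each mouse. *Gm26669* is above *Zfp36l1* in all 8 libraries, and both are lower in the PZ.

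*Junb*, *Jun*, *Zfp36* and *Zfp36l2* have partners of the same kind. *Prdx2*, which encodes an antioxidant peroxiredoxin, shares 173 bases of exon with *Junb* (7.518% of its exon length) and had 34 to 122 counts in RZ and 12 to 16 counts in PZ libraries. The antisense gene *Junos* shares 232 bases with *Jun* (7.275%) and had 1, 0, 1 and 1 counts in the RZ and 0 in the PZ, so at most 1 count per library stood beside the 24 *Jun* counts of mouse 6. Over all libraries *Prdx2* had 358 counts against 12 for *Junb*, and whether reads of either gene were counted on the other was not tested. *Gm44710* shares 125 bases of exon with *Zfp36* (3.602%) and *AC132455.1* 105 bases with *Zfp36l2* (2.975%), and the counts of these partners were not analysed here.

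The other genes of these pathways were taken from 8 lists with the 10 genes left out, 166 genes in all. Of these, 53 had enough counts for the test, 7 were higher and 1 lower in the RZ, a share of 15.1% called against 18.0% of all tested genes. Like the 10 genes, the lists were chosen with earlier results of these data known, so their p-values and calls are a description. Among 4 tested AP-1 partners, subunits of the same leucine zipper class, 3 rose in the RZ by edgeR's quasi-likelihood test. *Fosl2*, a Fos family gene, had a log2 fold change of 2.56 (SE 0.54, adjusted p = 0.00352). *Maf*, whose exons overlap those of *Gm15655* on the other strand, had a log2 fold change of 5.09 (SE 0.75, edgeR adjusted p = 0.000447). It is known as a transcription factor of macrophages. With 3, 0, 0 and 0 PZ counts in mice 1, 2, 6 and 13, *Maf* entered the test through the RZ alone. *Jund*, the most abundant of the 4, had 218 ± 75.6 CPM in the RZ and 342 ± 59.4 CPM in the PZ (SD, n = 4 each). Its log2 fold change of -0.63 did not pass the test (adjusted p = 0.119 with edgeR).

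Of 37 other immediate early genes, 32 had a count and 10 were tested, of which 3 rose in the RZ and 0 fell, against 11.0% and 6.93% of all tested genes. *Sgk1*, a serum- and glucocorticoid-induced kinase, had a log2 fold change of 2.34 (SE 0.52, edgeR adjusted p = 0.00437). *Nfkbia*, the inhibitor of NF-κB that NF-κB itself induces, had one of 1.88 (SE 0.47, edgeR adjusted p = 0.00946). *Pim1*, a cytokine-induced kinase whose exons overlap those of *Gm26885* on the other strand, had one of 3.15 (SE 0.58, edgeR adjusted p = 0.00149). A gene can enter the test through one zone alone, as *Dusp6* did with 12, 0, 0 and 0 PZ counts in mice 1, 2, 6 and 13, so these counts describe the tested genes and not the list. *Dusp6* (3.44, adjusted p = 0.0116) and *Ctgf* (1.67, adjusted p = 0.0181) did not pass edgeR's quasi-likelihood test. *Ctgf* was called higher in the RZ by the likelihood ratio test and DESeq2, and *Dusp6* by the likelihood ratio test. *Egr3*, *Egr4*, *Nr4a1*, *Nr4a3* and *Dusp4* had no count in any library. Only 1 gene of the list was called without the PZ library of mouse 2, and likewise without that of mouse 6.

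Among other Krüppel-like factors, *Klf13* rose (log2 fold change 2.09, SE 0.52, edgeR adjusted p = 0.00875) and *Klf10* had a log2 fold change of 0.58 (adjusted p = 0.322), the only 2 of 12 tested. *Klf13* was no longer called when the RZ library of mouse 1, 2 or 13 or the PZ library of mouse 2, 6 or 13 was left out. Of 30 textbook target mRNAs of ZFP36 proteins, 6 were tested and *Pim1*, already named, was the one called. *Hif1a*, the hypoxia-inducible factor, had a log2 fold change of -1.42 (adjusted p = 0.0184 with edgeR's quasi-likelihood test) and was called lower in the RZ by the likelihood ratio test and DESeq2. Their median log2 fold change was -0.07.

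The machinery with which ZFP36 proteins work comprises the deadenylase and decay factors and other proteins that bind the same elements. Of 27 genes of CCR4-NOT and mRNA decay, 13 were tested and 0 called with edgeR's quasi-likelihood test, against 18.0% of all tested genes. Of the 13, 4 had an unadjusted p below 0.05, against 40.3% of all tested genes, and the median log2 fold change was 0.21, against 0.08 over all tested genes. The likelihood ratio test and DESeq2 each called 1 of them, *Cnot6l*, a deadenylase subunit with a log2 fold change of 1.71 (adjusted p = 0.0209 in the quasi-likelihood test). With the quasi-likelihood test, 2 of the list were called higher at an adjusted p below 0.05, and 1 without the RZ library of mouse 2. *Edc3*, an activator of decapping, had 502 ± 143 CPM in the RZ and 417 ± 61.1 CPM in the PZ (SD, n = 4 each), and *Pabpc1*, the poly(A)-binding protein, 432 ± 173 CPM and 294 ± 30.2 CPM (SD, n = 4 each). Of 17 other proteins that bind AU-rich elements, 10 were tested, 0 called by edgeR's quasi-likelihood test, its likelihood ratio test or DESeq2, and 2 had an unadjusted p below 0.05. *Hnrnpab*, an RNA-binding protein, had 304 ± 55.2 CPM and 370 ± 21.6 CPM, and *Khsrp*, which promotes decay of AU-rich mRNAs, 181 ± 37.8 CPM and 113 ± 20.2 CPM in the RZ and PZ (SD, n = 4 each). The exons of *Edc3*, *Hnrnpab* and *Khsrp* overlap those of *Clk3*, *Phykpl* and *Gm17949* on the other strand. *Phykpl* had 2307 to 14221 counts per library against 58 to 233 for *Hnrnpab*, so the values of *Hnrnpab* may not give the level of its own transcript. With 4 libraries per zone, a p that misses the threshold does not show that these levels were equal.

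Of 23 genes of the MAPK cascade and of serum response factor with its cofactors, which switch on immediate early genes, 5 were tested, 0 called by edgeR's quasi-likelihood test, its likelihood ratio test or DESeq2, and 0 had an unadjusted p below 0.05. *Elk3*, a ternary complex factor overlapping *Cdk17* on the other strand, had 57.7 ± 41.6 CPM in the RZ and 31.9 ± 12.9 CPM in the PZ (SD, n = 4 each). Heat shock genes, which respond to tissue stress, gave 5 tested genes with 0 higher and 1 lower in the RZ. That gene was *Hsp90ab1*, a constitutive chaperone, with a log2 fold change of -1.55 (SE 0.26, edgeR adjusted p = 0.000822), and the stress-inducible *Hspa1a* had no count in any library. *Gm20481*, which shares 564 bases of exon with *Hspa1a* on the other strand (19.009% of its exon length), had 0 to 9 counts per library. In the fit over all genes with a count, *Jdp2* among the AP-1 partners and *Btg2*, *Cebpb*, *Dusp6* and *Ctgf* among the immediate early genes were also called higher in the RZ, *Hif1a* was called lower, and *Nfkbia* was no longer called.

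Markers of other cells moved with the zone. Summed CPM lay between 3901 and 4501 in the RZ and between 0 and 604 in the PZ for 12 neutrophil markers, and between 1060 and 1350 against 199 and 532 for 13 macrophage markers, of which *Cd14* had no count. For 12 osteoclast markers they lay between 1946 and 4922 against 89.0 and 507, and for 8 erythroid markers between 1811 and 12042 against 0 and 1718. The 13 lymphoid markers lay between 157 and 282 against 3.20 and 29.1, with *Pax5* and *Cd3e* at 0, and the 16 endothelial markers between 402 and 519 against 173 and 254. The 8 prehypertrophic and hypertrophic chondrocyte markers lay between 713 and 1904 in the RZ against 1301 and 2039 in the PZ. In the fit over all genes with a count, 5 of these 8 were called lower and 2 higher in the RZ. Among tested markers, 8 of 10 neutrophil, 6 of 7 osteoclast, 4 of 7 erythroid, 3 of 4 macrophage, 3 of 7 osteoblast, 2 of 2 lymphoid and 0 of 2 endothelial markers were called higher in the RZ, against 11.0% of all tested genes. The fold change was above 0 on the log2 scale for all tested neutrophil, osteoclast, erythroid, macrophage and lymphoid markers, for 6 of 7 osteoblast markers and for 1 of 2 endothelial markers. Over all genes with a count, 11 of 12 neutrophil, 10 of 12 osteoclast, 8 of 12 macrophage, 7 of 8 erythroid, 7 of 12 osteoblast, 3 of 11 lymphoid and 6 of 16 endothelial markers were called higher there, against 4.74% of all. All 12 osteoblast and osteocyte markers had a count. A marker can enter the test through the RZ alone, as *Mpo* did with 0 counts in every PZ library. The marker lists were chosen with earlier results known, like the other lists, so their calls are a description. Genes higher in the RZ, such as *Zfp36l1*, *Fos* and *Junb*, run beside the markers that were higher there, whereas *Klf4* and *Hsp90ab1* run the other way. The part of other cells in these zone differences was not tested.

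**Figure D4:**
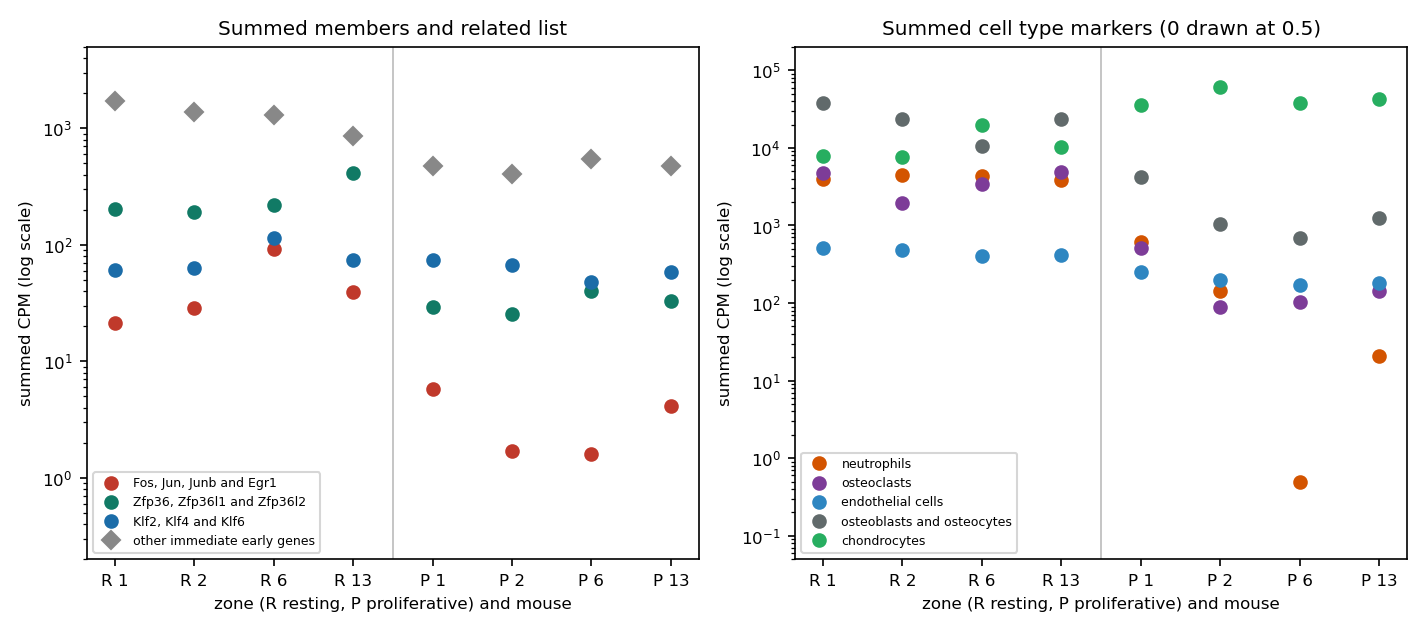
Summed CPM (log axis) per library, by zone and mouse: gene sets of this report on the left, and cell type markers on the right, with a sum of 0 drawn at 0.5. The RZ library of mouse 6 is highest for *Fos*, *Jun*, *Junb* and *Egr1* (91.5 CPM). Within its zone it is also highest for chondrocyte markers (19678 CPM). It is lowest there for the osteoblast sum (10447 CPM), which rests mostly on *Col1a1* and *Col1a2*.

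The RZ library of mouse 6 had the zone's highest *Fos*, *Jun*, *Egr1*, *Klf2* and *Klf6* and the highest chondrocyte and RZ marker sums. Its endothelial (402 CPM), macrophage (1060 CPM) and osteoblast (10447 CPM) sums were the lowest of the zone, the last resting mostly on *Col1a1* and *Col1a2*. The osteoclast (3436 CPM), erythroid (4090 CPM) and lymphoid (167 CPM) sums of this library lay between those of the other RZ libraries. The neutrophil sum (4337 CPM) was second to that of mouse 2. *Zfp36l1*, with 195 CPM in the library of mouse 6, was between the other RZ libraries.

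Profiles most like that of *Zfp36l1* were sought over the 8 libraries by the root mean square difference of log2(CPM + 1) after centering. The nearest were *Gm26735* (0.334), *Scara3* (0.429), *Bcas3os1* (0.449), *Myh9* (0.449) and *Sox4* (0.460), and *Gm26735* and *Sox4* overlap on opposite strands. For *Klf4*, the other tested gene, they were *Ndor1* (0.266), *Ckap5* (0.269), *Fkbp1a* (0.277), *Tra2b* (0.279) and *Ubap2* (0.286). The *Klf4* neighbors had log2 fold changes between -0.95 and -0.52.

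Sex was not part of how the genes were picked, so it was tested. No difference of the zone effect between male and female mice was called for any of the 10 genes, and over all 3793 genes 0 were called (0%) while 190 (5.01%) had an unadjusted p below 0.05 by edgeR. The zone effect of *Zfp36l1* was 0.38 higher on the log2 scale in females (SE 0.81, edgeR adjusted p = 0.995) and that of *Klf4* 0.63 higher (SE 1.06, adjusted p = 0.995). With counts summed per mouse, 2 of 6833 genes (0.0293%) were called between the sexes, *Tsix* and *Xist* as above, and 429 (6.28%) had an unadjusted p below 0.05 by edgeR. Of the 10 genes, 5 had enough counts there and 0 were called. *Zfp36l2* had the largest difference of these 5, 2.01 higher in females on the log2 scale (SE 0.73, edgeR adjusted p = 0.718), and *Zfp36l1* was 0.59 higher (SE 0.33, adjusted p = 0.887). Each sex had 2 mice, and the RZ library of mouse 13, female, held 23 of the 64 *Zfp36l2* counts.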

How the data were processed

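The authors trimmed the reads with BBDuk, aligned them to GRCm38 with HISAT2 2.1.0, counted them per gene with HTSeq 0.11.2 and deposited whole-number counts without normalization. A second table holds the authors' own comparison: the deposited signal per library (scaled CPM), log2 fold change, likelihood ratio score and p-value. Only its gene names were used.

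The 10 genes and all lists were chosen with earlier results of these data known. Groups came from the sample labels. The counts were tested with edgeR 4.0.16 (R 4.3.3): TMM scaling, filtering by zone (minimum count 10, total 15), a quasi-likelihood fit with the zone alone (biological coefficient of variation 0.38), and Benjamini-Hochberg adjustment over all tested genes. Named genes are the 10, those overlapping them on the opposite strand, up to 5 called genes per list with the lowest p (for lists with no call, the 2 with the highest mean CPM) and the nearest profiles. Further genes of a list were named after their values were seen. Some list genes that this rule selects are not reported here. Sex was tested on counts summed per mouse, and the zone-by-sex term with the mouse as a block. Pooled ratios have exact 95% intervals. Fits were tested on simulated data with 200 changed genes.

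Same-numbered libraries come from 1 animal by the labels. After removal of the zone means, their correlation across genes was 0.165, 0.0136, 0.137 and 0.0577 in mice 1, 2, 6 and 13, against -0.0615 to -0.00828 with other mice. The alternatives were a likelihood ratio test, DESeq2 1.42.0, other scaling, other filters, an adjusted p below 0.05, the mouse as a block and leaving out each library. Sequences were read from GENCODE M21 and RefSeq with Python 3.11.15, and plots drawn with matplotlib 3.10.9.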

Additional observations from a re-analysis of the deposited data

Results flagged for a closer look

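Of 60 groups of 4 libraries examined, 9 had a highest or lowest library whose gap to the nearest other exceeded Dixon's 95% critical value, and chance alone gives about 1 in 20.

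In the RZ, *Zfp36l2* had 112.9 CPM in mouse 13, against at most 21.26 CPM in the others, and *Jun* had 47.75 CPM in mouse 6, against at most 6.076 CPM. In the PZ, *Fos* had 5.824 CPM in mouse 1 and *Egr1* 4.147 CPM in mouse 13, with 0 in the other libraries of that zone. These came from 3 counts and 1 count. With a single library above 0 the gap spans the whole range by construction, so the chance rate does not apply to these 2 groups.

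*Gm26669*, on the strand opposite *Zfp36l1*, was lowest in the RZ library of mouse 6 (953.0 CPM, the next 1848 CPM) and highest in the PZ library of mouse 1 (320.3 CPM, the next 128.1 CPM). In that same PZ library of mouse 1, summed osteoclast markers reached 506.7 CPM (the next 141.0 CPM) and summed osteoblast and osteocyte markers 4192 CPM (the next 1257 CPM). Summed RZ markers reached 1076 CPM in the RZ library of mouse 6 (the next 562.0 CPM). The reasons for these values were not tested.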

How the results depend on the processing

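The count of 1 called gene among the 10, a description since they were picked on this contrast, was the same under every alternative that could test any of them. With at least 10 counts in every library none of the 10 was tested. No zone difference of the 10 genes changed sign. Genes called higher in the RZ (419) and higher in the PZ (263) became 829 and 468 over all genes with a count, 125 and 137 with at least 10 counts in every library, and 635 and 427 at an adjusted p below 0.05. Leaving out single libraries gave 255 to 472 and 183 to 349, the lowest both without the PZ library of mouse 2. Related genes called higher (7) became 11, 1 and 11 under the same 3 settings and 3 to 7 without single libraries, with 4 without the PZ library of mouse 2 and 3 without that of mouse 6. Those called lower (1) became 2 over all genes with a count, at an adjusted p below 0.05, with the likelihood ratio test and with DESeq2, and stayed 1 without any single library. Over all genes with a count, 16 genes were called in the zone-by-sex term and 42 between the sexes, and 5 between the sexes in the PZ libraries alone, none of them among the 10. The causes were not tested.

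With the mouse as a replicate block, 385 and 230 genes were called, *Zfp36l1* had a log2 fold change of 3.43, and the counts of related genes were 7 and 1, so the pairing changed no count of calls by over 1.5 times. Scaling by total counts alone moved the median log2 fold change of all tested genes from 0.08 to 0.20. The log2 fold change of *Zfp36l1* lay between 3.22 and 3.59 over these settings. Leaving out a library moved that of *Jun* to 0.73, *Egr1* to 2.18 and *Klf6* to 0.72 (RZ, mouse 6), *Zfp36* to 1.49 (RZ, mouse 2), *Zfp36l2* to 0.10 (RZ, mouse 13), *Fos* to 5.43 and *Klf2* to 0.77 (PZ, mouse 1) and *Egr1* to 4.72 (PZ, mouse 13). Depth limits 8 of the 10 genes, which had at most 66 counts per zone over 4 libraries. Zone p-values measure the spread between libraries within a zone, with libraries of the same mouse taken as independent except in the block fit.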
